A study of Mus musculus with 9 samples.

Results

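Transcript levels of the gene for p53, *Trp53*, and of 9 of its known target genes (*Mdm2*, *Cdkn1a*, *Ccng1*, *Trp53inp1*, *Zmat3*, *Sesn2*, *Phlda3*, *Bbc3*, and *Bax*) were examined in *Rbbp4* mutant mouse embryonic stem cells (ESCs). The genes were chosen by symbol, and these 10 are of 25239 gene symbols in the count files and of 14125 genes with enough reads for a test. All 10 were among the genes tested. RNA-seq covered 3 lines with 3 libraries each, 9 in all. The control was E14, an ESC line of strain 12910la with the genotype Rbbp4+/+. *Rbbp4* Ins/Ins carries an insertion of 3 nucleotides on both *Rbbp4* alleles. In *Rbbp4* Ins/Del, 1 allele carries this same insertion and the other lacks 18 nucleotides, so the 2 mutant lines have an allele in common. RBBP4 is a histone-binding subunit shared by Polycomb repressive complex 2 and by histone deacetylase complexes. All lines were grown in serum with leukemia inhibitory factor. Each mutant line is 1 colony isolated after transfection with Cas9, a guide RNA, and a puromycin resistance plasmid, so the mutation and any other property of that clone cannot be told apart.

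p53 is a transcription factor that is made continuously and kept low by MDM2, a ubiquitin ligase that marks it for degradation. Stress signals, DNA damage above all, free p53 from MDM2, and p53 then activates genes that arrest the cell cycle, repair DNA, adjust metabolism, or start apoptosis. *Mdm2* is itself one of these targets, which closes a negative feedback loop. ESCs are known for high p53 levels and for a short G1 phase with little of the cyclin-dependent kinase inhibitor p21.

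Of the 10 genes, *Mdm2*, *Cdkn1a*, *Zmat3*, *Phlda3*, and *Bax* were higher in both mutant lines, and *Trp53*, *Ccng1*, and *Bbc3* were lower in both. A gene was called at a Benjamini-Hochberg adjusted p of at most 0.01 in the edgeR quasi-likelihood fit of all genes. In *Rbbp4* Ins/Ins ESCs, 6 of the 10 genes were higher than in the control, where 29.0% of all tested genes were higher. In the same line 3 of the 10 were lower, against 29.4% of all tested genes. In *Rbbp4* Ins/Del ESCs, 5 of them rose and 3 fell, beside 30.6% of all tested genes that rose and 31.9% that fell. The share of all tested genes that was called in the same direction in both lines was not counted. The libraries of *Rbbp4* Ins/Ins ESCs did not overlap with those of the control for 9 of the 10 genes, and this held for 69.1% of all tested genes. For *Rbbp4* Ins/Del ESCs these numbers were 8 of 10 and 72.8%. The median log2 fold change of the 10 genes was 0.19 in *Rbbp4* Ins/Ins ESCs and 0.12 in *Rbbp4* Ins/Del ESCs, beside medians over all tested genes of 0.00377 and -0.0107. *Cdkn1a* was the 1 gene of the 10 that changed over 2-fold. Of all 14125 tested genes, 2254 in *Rbbp4* Ins/Ins ESCs and 2630 in *Rbbp4* Ins/Del ESCs were called with a change over 2-fold. The plot of the log2 fold changes places *Cdkn1a*, *Mdm2*, and *Zmat3* apart from the other 7 genes in both lines.

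**Figure D1:**
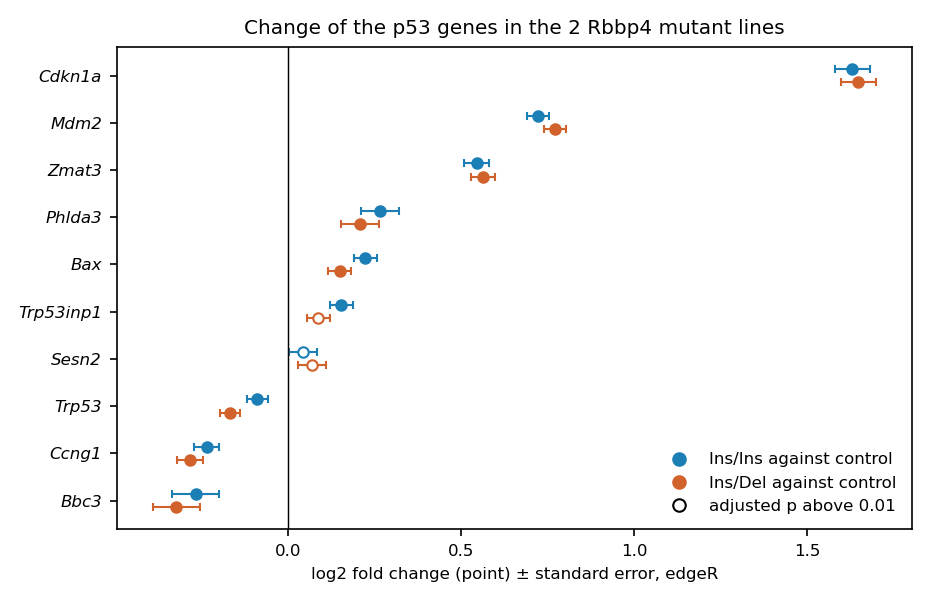
Log2 fold change of *Trp53* and 9 p53 target genes against the control (horizontal axis) in *Rbbp4* Ins/Ins (blue) and *Rbbp4* Ins/Del (orange), with bars of 1 standard error and n = 3 libraries per line. Filled points passed an adjusted p of 0.01, and the open points are *Sesn2* in both lines and *Trp53inp1* in *Rbbp4* Ins/Del ESCs. *Cdkn1a* lies at 1.63 and 1.65, *Bbc3* at -0.26 and -0.32.

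Library totals lay between 15838064 and 21366868 counted reads. *Rbbp4* transcripts were at 10005 ± 99.1 normalized counts (SD, n = 3) in E14, 5604 ± 153 in *Rbbp4* Ins/Ins ESCs, and 10359 ± 238 in *Rbbp4* Ins/Del ESCs. The mutations alter few bases, so these counts do not check the genotype labels. Normalized counts are reads scaled to the mean library size. All 10 markers of pluripotent cells had reads in every line, with summed levels of 85546 to 90566 normalized counts in E14, 113513 to 114718 in *Rbbp4* Ins/Ins ESCs, and 109934 to 113576 in *Rbbp4* Ins/Del ESCs, and 6 of the 10 were higher and 1 lower in both mutants. Each list of markers of another cell type held members called higher and members called lower in each line. Sums of 8 fibroblast markers were 604 to 692, 275 to 304.5, and 382 to 408. Of 5 tested, the 3 collagen genes *Col1a1*, *Col1a2*, and *Col3a1* fell in both lines, and *Thy1* rose in both, from 45.7 to 245.7 and 311.6, so that it made up most of both mutant sums. *Pdgfra* was called only in *Rbbp4* Ins/Del ESCs, where it rose by 0.89 on the log2 scale. Sums of 8 trophectoderm markers were 4907 to 5378, 2664 to 2837, and 1828 to 1899. Of 7 tested, *Cdx2*, *Krt8*, and *Krt18* fell in both, *Eomes* rose in both, and *Tfap2c* rose by 0.48 in *Rbbp4* Ins/Ins ESCs and fell by 0.21 on the log2 scale in *Rbbp4* Ins/Del ESCs. Sums of 9 mesoderm and neural progenitor markers were 2855 to 2884, 842 to 888, and 792 to 819, of which *Nes* and *Pax6* were 1744 and 678.3 in E14. T, *Pax6*, and *Nes* fell in both, and *Eomes*, which is also on the trophectoderm list, rose in both. *Kdr* was called only in *Rbbp4* Ins/Del ESCs, where it rose by 1.06 on the log2 scale. Sums of 8 primitive endoderm markers were 1405 to 1609.8, 1098 to 1214, and 1681 to 1803. Of 7 tested, 1 rose and 3 fell in *Rbbp4* Ins/Ins ESCs, and 5 rose and 2 fell in *Rbbp4* Ins/Del ESCs. *Col4a1*, at 1139, 919, and 1415, made up most of these sums. No marker was at 0 in every library of a line. The part of these markers in the results on p53 genes was not tested, and in bulk RNA fewer cells of a type and less RNA per cell cannot be told apart.

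*Trp53* (chr11:69580359-69591873, plus strand) encodes p53. Its normalized counts were 8741, 8805, and 8620.1 in E14, 8255, 7920.5, and 8453 in *Rbbp4* Ins/Ins ESCs, and 7649.6, 7951, and 7702 in *Rbbp4* Ins/Del ESCs. The mutant libraries were all below the lowest library of E14. The mean fell by 5.88% in *Rbbp4* Ins/Ins ESCs (log2 fold change -0.09, standard error 0.029, edgeR adjusted p = 0.00758) and by 10.9% in *Rbbp4* Ins/Del ESCs (log2 fold change -0.17, standard error 0.029, edgeR adjusted p = 3.1e-06). The call in *Rbbp4* Ins/Ins ESCs was lost under 11 of 16 alternative ways of processing, among them the fits without control replicate 1, 2, or 3, without *Rbbp4* Ins/Ins replicate 1 or 2, and without any one of the 3 *Rbbp4* Ins/Del replicates. Over these 16 the log2 fold change lay between -0.11 and -0.06 and the edgeR or DESeq2 adjusted p between 0.0021 and 0.087. The annotation holds a processed pseudogene of *Trp53*, *Trp53-ps*, and how reads shared with it were counted is not given in the sources used here.

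*Mdm2* (chr10:117688875-117710758, minus strand) encodes the ubiquitin ligase that restrains p53. E14 had 2979, 2871, and 2949 normalized counts. The libraries of *Rbbp4* Ins/Ins ESCs had 4839.6, 4909.8, and 4784, and those of *Rbbp4* Ins/Del ESCs had 4915, 5222, and 4880.4. All 6 mutant libraries lay above all 3 control libraries, with a wide gap between the groups. *Mdm2* rose 1.65-fold in *Rbbp4* Ins/Ins ESCs (log2 fold change 0.72, standard error 0.032, edgeR adjusted p = 9.5e-22) and 1.71-fold in *Rbbp4* Ins/Del ESCs (0.77, standard error 0.032, edgeR adjusted p = 8.7e-23).

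**Figure D2:**
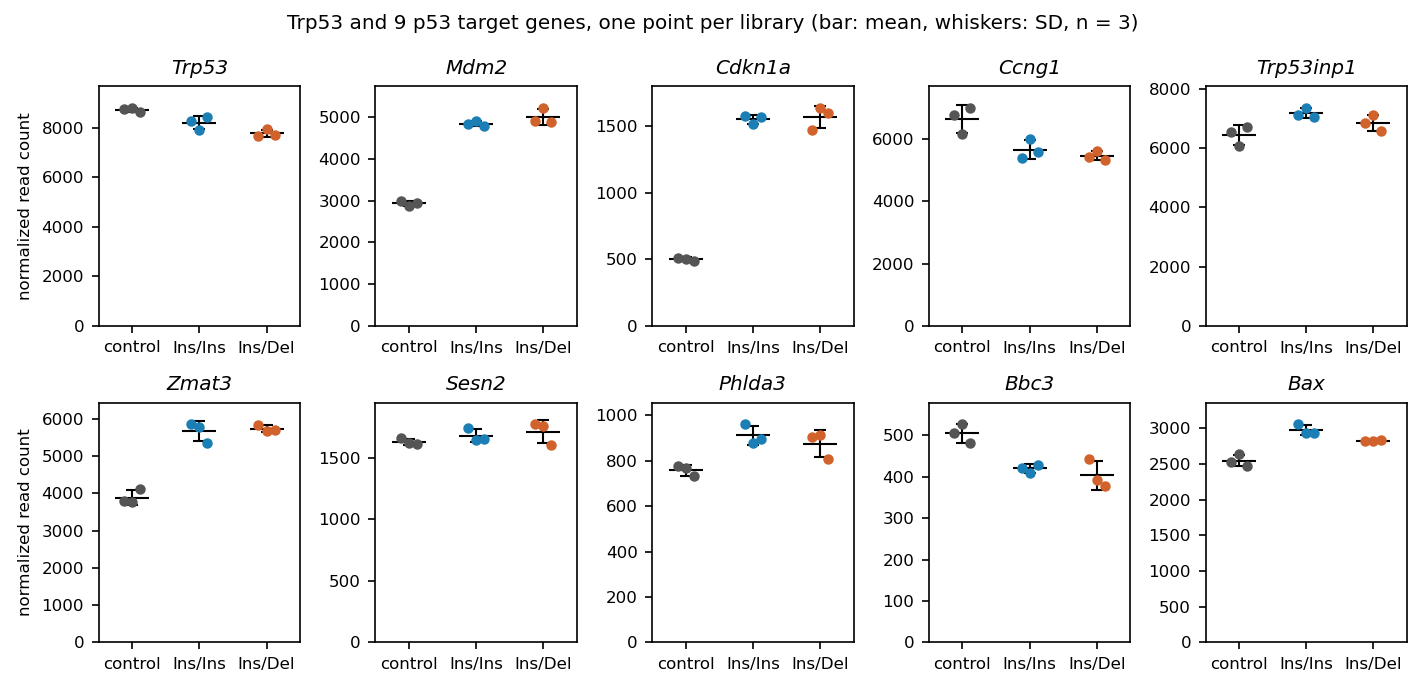
Normalized read counts (vertical axis, from 0) of *Trp53* and 9 p53 target genes, 1 panel per gene, with 1 point per library for the control (grey), *Rbbp4* Ins/Ins (blue), and *Rbbp4* Ins/Del (orange), a bar at the mean, and whiskers of 1 SD (n = 3). The control libraries of *Cdkn1a* sit between 485 and 513 and the mutant libraries between 1476 and 1639, whereas the groups overlap for *Sesn2*.

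*Cdkn1a* (chr17:29090976-29100727, plus strand) encodes p21, the inhibitor of cyclin-dependent kinases through which p53 halts cells in G1. Its normalized counts were 513, 504.9, and 485 in E14, 1574, 1514, and 1567 in *Rbbp4* Ins/Ins ESCs, and 1476, 1639, and 1597 in *Rbbp4* Ins/Del ESCs. No mutant library came near the control range. *Cdkn1a* rose 3.10-fold in *Rbbp4* Ins/Ins ESCs (log2 fold change 1.63, standard error 0.051, edgeR adjusted p = 6.1e-27) and 3.13-fold in *Rbbp4* Ins/Del ESCs (1.65, standard error 0.051, edgeR adjusted p = 3.3e-27). These folds were above those of 96.3% and 95.2% of all tested genes. The gene *AC167363.2* overlaps 7.68% of the exonic length of *Cdkn1a* on the opposite strand, and whether the counting used strand is not given in the sources used here.

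*Ccng1* (chr11:40748552-40755311, minus strand) encodes cyclin G1, which recruits a phosphatase to MDM2. It had 6773, 6139.5, and 6989 normalized counts in E14, 5387, 5974, and 5582 in *Rbbp4* Ins/Ins ESCs, and 5427, 5619, and 5315 in *Rbbp4* Ins/Del ESCs. All mutant libraries were below the lowest control library, which was close to the highest of *Rbbp4* Ins/Ins ESCs. *Ccng1* fell by 14.9% in *Rbbp4* Ins/Ins ESCs (log2 fold change -0.23, standard error 0.037, edgeR adjusted p = 7.2e-07) and by 17.8% in *Rbbp4* Ins/Del ESCs (-0.28, standard error 0.037, edgeR adjusted p = 1.5e-08).

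p53 binds a run of 20 bases, the p53 response element. RefSeq promoter windows of GRCm38.p6, from 250 bases before to 50 bases after a start, were present for 8 of the 10 genes, all but *Trp53inp1* and *Zmat3*. The windows were searched on both strands for the p53 response element consensus, without a spacer and with at most 2 mismatches outside the fixed C and G of each core. Of 32851 mouse promoters, 107 (0.326%) held such a match, and among the 10 genes these were *Cdkn1a* and *Ccng1*, each with 1 mismatch. The sequences are shown because this pair of genes holds the match and moved in opposite directions, with the match in capitals.
*Cdkn1a* promoter, chr17:29090878-29090972, plus strand: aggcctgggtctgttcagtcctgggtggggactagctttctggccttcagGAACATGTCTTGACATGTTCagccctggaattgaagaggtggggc
*Ccng1* promoter, chr11:40755437-40755531, minus strand: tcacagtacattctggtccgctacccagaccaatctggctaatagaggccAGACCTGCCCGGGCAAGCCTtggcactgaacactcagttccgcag
Counted from the start in the RefSeq promoter table, which can differ from the gene start given above, the match lies 51 to 32 bases before that of *Cdkn1a* and 195 to 176 bases before that of *Ccng1*. *Cdkn1a* has 2 RefSeq promoter windows, and only 1 of them held the match. With 3 mismatches, 453 promoters (1.38%) held a match, and *Trp53* and *Bbc3* were then added. A match is a description of the letters and shows no binding.

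*Zmat3* (chr3:32334792-32366014, minus strand) encodes a zinc finger protein that binds RNA and influences splicing. It had 3782, 3754, and 4108 normalized counts in E14, 5847, 5779, and 5350.2 in *Rbbp4* Ins/Ins ESCs, and 5837, 5664, and 5691 in *Rbbp4* Ins/Del ESCs. The groups did not overlap. *Zmat3* rose 1.46-fold in *Rbbp4* Ins/Ins ESCs (log2 fold change 0.55, standard error 0.035, edgeR adjusted p = 6.7e-17) and 1.48-fold in *Rbbp4* Ins/Del ESCs (0.56, standard error 0.035, edgeR adjusted p = 2e-17). The GENCODE transcripts were searched for the same consensus. A match without mismatch, found in transcripts of 17 of 55450 genes (0.0307%), lies in the retained-intron transcript Zmat3-204 at chr3:32364331-32364350, minus strand, which is intronic in the other 3 transcripts of the gene.
*Zmat3* intron match: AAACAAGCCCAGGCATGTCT

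*Bax* and *Bbc3* encode proteins of the BCL2 family, which controls apoptosis. *Bax* (chr7:45461697-45466898, minus strand), which encodes the protein that opens the outer mitochondrial membrane, had 2525, 2635, and 2475 normalized counts in E14, 3053, 2932, and 2927 in *Rbbp4* Ins/Ins ESCs, and 2815, 2819.7, and 2835 in *Rbbp4* Ins/Del ESCs. It rose by 16.7% in *Rbbp4* Ins/Ins ESCs (log2 fold change 0.22, standard error 0.034, edgeR adjusted p = 3.2e-07) and by 10.9% in *Rbbp4* Ins/Del ESCs (0.15, standard error 0.034, edgeR adjusted p = 0.00019). The 3 groups of *Bax* libraries did not overlap one another. *Gm45808* shares 12.2% of the exonic length of *Bax* on the same strand, and how reads shared by both were counted is not given in the sources used here. The *Bax* transcript Bax-203 holds a match with 2 mismatches in the non-coding part of its exon 1 at chr7:45466574-45466593, minus strand. The site is exonic in 1 of the 6 annotated *Bax* transcripts and intronic in 4, and 2.19% of genes had a match of this quality in a transcript.
*Bax* match: GGGCAGGCCCGGGCTTGTCG

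*Bbc3* (chr7:16308393-16318205, plus strand) encodes PUMA, a BH3-only activator of apoptosis. Its normalized counts were 507, 526.9, and 480.7 in E14, 421.7, 409.6, and 429.2 in *Rbbp4* Ins/Ins ESCs, and 442.6, 391.6, and 377.2 in *Rbbp4* Ins/Del ESCs. All 6 mutant libraries were below the control range. It fell by 16.8% in *Rbbp4* Ins/Ins ESCs (log2 fold change -0.26, standard error 0.068, edgeR adjusted p = 0.00077) and it fell by 20.01% in *Rbbp4* Ins/Del ESCs (-0.32, standard error 0.068, edgeR adjusted p = 7.3e-05). *Bax* and *Bbc3*, both apoptotic targets on chromosome 7, moved in opposite directions in both lines.

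Among the last 3 genes, *Phlda3* rose in both lines, *Trp53inp1* rose in *Rbbp4* Ins/Ins ESCs, and *Sesn2* passed the test in neither line. *Phlda3* (chr1:135766119-135769136, plus strand), whose product restrains AKT at the membrane, had 777.1, 766.8, and 731.9 normalized counts in E14, 960.6, 877.9, and 896.5 in *Rbbp4* Ins/Ins ESCs, and 904.7, 913.1, and 806.5 in *Rbbp4* Ins/Del ESCs. Replicate 3 of *Rbbp4* Ins/Del was closest to the control, yet no mutant library fell within the control range. *Phlda3* rose by 20.2% in *Rbbp4* Ins/Ins ESCs (log2 fold change 0.27, standard error 0.055, edgeR adjusted p = 4.9e-05) and by 15.3% in *Rbbp4* Ins/Del ESCs (0.21, standard error 0.055, edgeR adjusted p = 0.00101). Without *Rbbp4* Ins/Del replicate 2, the latter call was lost (edgeR adjusted p = 0.013, beside 0.00014 to 0.013 over all 16 alternatives).

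*Trp53inp1* (chr4:11156431-11174379, plus strand), whose product takes part in p53-dependent apoptosis and autophagy, had 6542, 6076, and 6719 normalized counts in E14, 7118, 7359.7, and 7057 in *Rbbp4* Ins/Ins ESCs, and 6857, 7121, and 6560.4 in *Rbbp4* Ins/Del ESCs. The *Rbbp4* Ins/Ins libraries were all above the control, and the lowest *Rbbp4* Ins/Del library lay within the control range. *Trp53inp1* rose by 11.4% in *Rbbp4* Ins/Ins ESCs (log2 fold change 0.15, standard error 0.033, edgeR adjusted p = 9.2e-05). In *Rbbp4* Ins/Del ESCs its log2 fold change was 0.09 (standard error 0.033, edgeR adjusted p = 0.0181), which did not pass. It passed there under 6 of 16 alternatives, with adjusted p from 0.0014 to 0.16 over all of them, and the fits that passed include those without control replicate 3, *Rbbp4* Ins/Ins replicate 1, or *Rbbp4* Ins/Del replicate 3.

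*Sesn2* (chr4:132492032-132510501, minus strand) encodes sestrin 2, a leucine sensor that restrains mTORC1. It had 1659, 1617, and 1614 normalized counts in E14, 1742, 1644, and 1650.2 in *Rbbp4* Ins/Ins ESCs, and 1771, 1759, and 1603 in *Rbbp4* Ins/Del ESCs, and both mutant groups overlapped with the control. Its log2 fold change in *Rbbp4* Ins/Ins ESCs was 0.04 (95% interval -0.04 to 0.12, edgeR adjusted p = 0.357) and that in *Rbbp4* Ins/Del ESCs was 0.07 (95% interval -0.01 to 0.15, edgeR adjusted p = 0.123).

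The order of the levels was compared per length, as RPKM, reads scaled to the length of a gene's exons and to library size. The length covers the exons of all annotated transcripts, retained-intron ones included, whether or not they are expressed here. The order therefore depends on the annotation. In the control, *Trp53* was highest at 118 ± 1.28 (SD, n = 3), followed by *Ccng1* at 104 ± 6.89, *Bax* at 88.6 ± 2.84, *Trp53inp1* at 54.6 ± 2.81, and *Mdm2* at 31.6 ± 0.598. *Phlda3* at 26.7 ± 0.834 and *Sesn2* at 25.7 ± 0.398 overlapped in their libraries and were the 1 pair of neighbours in this order that did. *Zmat3* at 18.6 ± 0.942, *Bbc3* at 13.0 ± 0.598, and *Cdkn1a* at 7.73 ± 0.222 were the lowest. In the mutants *Cdkn1a* reached 24.0 ± 0.501 in *Rbbp4* Ins/Ins ESCs and 24.2 ± 1.31 in *Rbbp4* Ins/Del ESCs, above *Bbc3* at 10.9 ± 0.255 and 10.4 ± 0.888. *Mdm2* reached 52.3 ± 0.683 and 54.0 ± 2.03, close to *Trp53inp1* at 60.8 ± 1.35 and 58.0 ± 2.38.

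**Figure D3:**
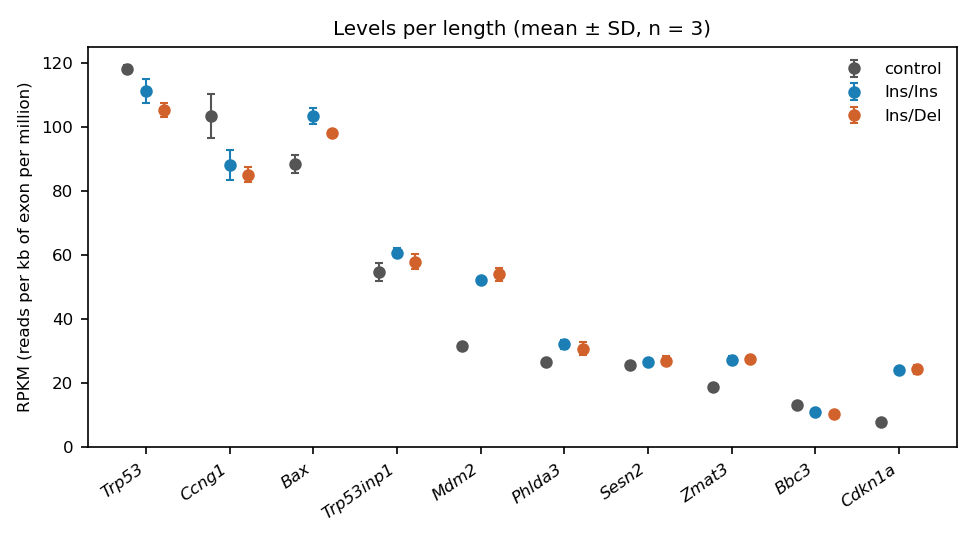
Levels per length (vertical axis, RPKM, mean ± SD, n = 3 libraries) of the 10 genes in the control (grey), *Rbbp4* Ins/Ins (blue), and *Rbbp4* Ins/Del (orange), ordered by the control level. *Cdkn1a* is the lowest gene in the control at 7.73 and lies above *Bbc3* in both mutants, and *Trp53* is the highest in all 3 lines.

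The mutants were also compared with each other. Of all tested genes, 10.8% differed between *Rbbp4* Ins/Del ESCs and *Rbbp4* Ins/Ins ESCs, and of the 10 genes 0 passed in edgeR. At an unadjusted edgeR p of 0.05, 0 of the 10 were higher in *Rbbp4* Ins/Del ESCs and 3 were lower. DESeq2 called 0, with 1 lower at an unadjusted p of 0.05. The share of all tested genes past that unadjusted p was not counted, so these counts cannot be set against it. The lowest adjusted p was that of *Trp53*, with a log2 difference of -0.08 (standard error 0.029, edgeR adjusted p = 0.0476). The differences of the 10 genes lay between -0.08 and 0.05 on the log2 scale. For *Cdkn1a* the difference was 0.02 (standard error 0.043, edgeR adjusted p = 0.834) and for *Mdm2* 0.05 (standard error 0.031, edgeR adjusted p = 0.302). *Bax* was the 1 gene of the 10 whose libraries did not overlap between the mutants, with a log2 difference of -0.07 (edgeR adjusted p = 0.122). How many of all tested genes had libraries that did not overlap in this comparison was not counted.

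The genes tested within 5 Mb of each of the 10 genes were examined as a measure of change in the surrounding region. Their median log2 fold changes lay between -0.24 and 0.16 in *Rbbp4* Ins/Ins ESCs and between -0.28 and 0.17 in *Rbbp4* Ins/Del ESCs. In both lines the lowest median was that around *Trp53inp1* and the highest that around *Zmat3*. Around *Cdkn1a* the 216 neighbours had medians of 0.09 and 0.02, and around *Mdm2* the 43 neighbours had medians of 0.02 and 0.02.

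The list of p53 relatives, regulators, and upstream kinases held 22 genes, of which 21 could be tested and *Trp63* had too few reads. In *Rbbp4* Ins/Ins ESCs 6 were higher and 6 lower, and in *Rbbp4* Ins/Del ESCs 6 were higher and 5 lower, with medians of 0.05 and 0.03. These are 28.6% and 28.6% in *Rbbp4* Ins/Ins ESCs and 28.6% and 23.8% in *Rbbp4* Ins/Del ESCs, near or below the 29.0% higher and 29.4% lower and the 30.6% higher and 31.9% lower of all tested genes. Higher in both mutants were *Trp73*, *Rchy1*, *Cdkn2a*, *Sirt1*, and *Daxx*, and lower in both were *Usp10*, *Kat5*, *Trp53bp1*, and *Prkdc*. *Cdkn2a*, whose product p19ARF inhibits MDM2 and whose product p16INK4A inhibits CDK4, had 95.1 ± 6.43 normalized counts (SD, n = 3) in E14, 208 ± 9.31 in *Rbbp4* Ins/Ins ESCs, and 251 ± 7.65 in *Rbbp4* Ins/Del ESCs. It rose by 1.12 on the log2 scale in *Rbbp4* Ins/Ins ESCs (standard error 0.11, edgeR adjusted p = 7.3e-12) and by 1.39 in *Rbbp4* Ins/Del ESCs (standard error 0.10, edgeR adjusted p = 5.5e-15). Counts per gene do not separate the transcripts of p19ARF and p16INK4A.

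*Trp53bp1* encodes 53BP1, a p53-binding protein that steers the repair of DNA breaks. It had 3257 ± 43.4 normalized counts (SD, n = 3) in E14, 1754 ± 51.0 in *Rbbp4* Ins/Ins ESCs, and 1568 ± 37.2 in *Rbbp4* Ins/Del ESCs. It fell by 0.89 on the log2 scale in *Rbbp4* Ins/Ins ESCs (standard error 0.035, edgeR adjusted p = 1.6e-23) and by 1.06 in *Rbbp4* Ins/Del ESCs (standard error 0.036, edgeR adjusted p = 9.4e-26). *Tubgcp4* overlaps 15% of its exonic length on the opposite strand. *Prkdc*, the catalytic subunit of the DNA-dependent protein kinase, fell by 0.25 and 0.30 on the log2 scale, and the p53 relative *Trp73* rose by 0.39 and 0.56. The *Trp73* call in *Rbbp4* Ins/Ins ESCs was lost under 5 of 16 alternatives, with DESeq2 and without control replicate 1 or 2 or *Rbbp4* Ins/Ins replicate 2 or 3 (adjusted p from 0.0042 to 0.019). *Rchy1*, another ubiquitin ligase for p53, rose by 0.37 and 0.29, and *Thap6* overlaps 18% of its exonic length on the opposite strand. *Mdm4*, the MDM2 relative that inhibits p53, had log2 fold changes of 0.0029 and -0.02 (edgeR adjusted p = 0.956 and 0.646). *Ppm1d*, the phosphatase that shuts off p53 signaling, had 0.07 and 0.08 (edgeR adjusted p = 0.309 and 0.183).

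Other p53 targets were grouped in 4 lists, which together held 53 genes, 50 of them tested. Of these, 21 rose and 10 fell in *Rbbp4* Ins/Ins ESCs, and 18 rose and 15 fell in *Rbbp4* Ins/Del ESCs. The medians were 0.11 and 0.04. That is 42% higher and 20% lower in *Rbbp4* Ins/Ins ESCs, against 29.0% and 29.4% of all tested genes, and 36% and 30% in *Rbbp4* Ins/Del ESCs, against 30.6% and 31.9%. In both mutants 17 were higher and 9 lower, and the share of all tested genes called alike in both was not counted. The plot of the lists shows points on both sides of the median of all tested genes in each list.

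**Figure D4:**
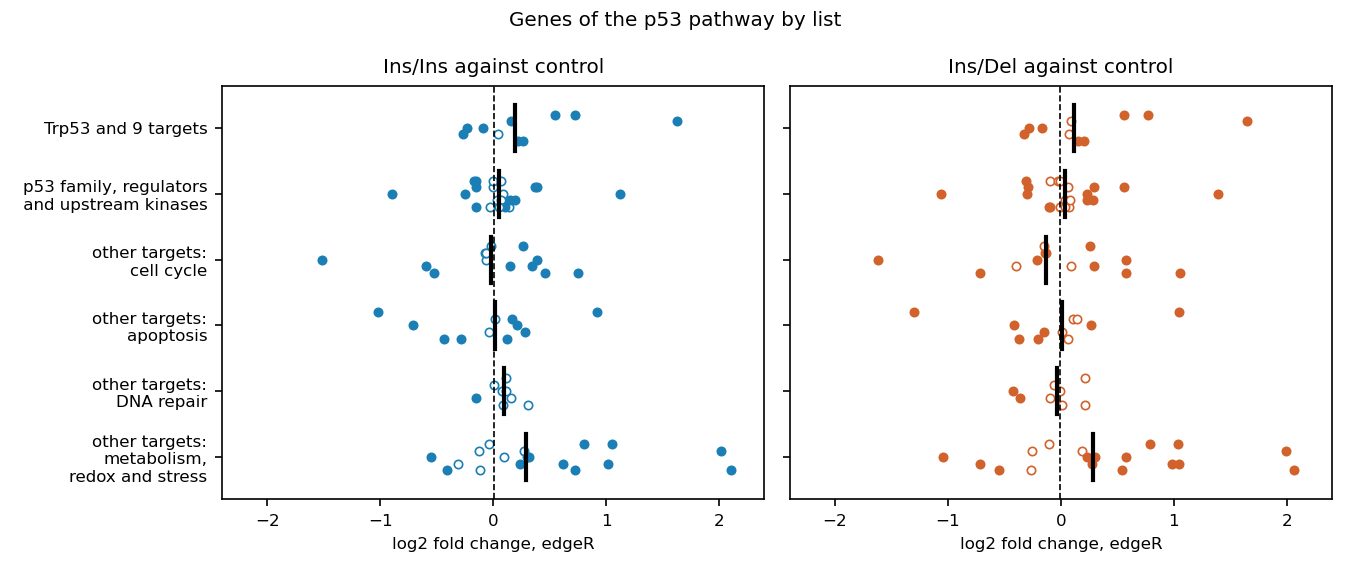
Log2 fold change (horizontal axis) against the control of the genes of each p53 list in *Rbbp4* Ins/Ins (left) and *Rbbp4* Ins/Del (right), 1 point per gene, filled where the edgeR adjusted p was at most 0.01. Thick bars are the medians of the lists, 0.29 in both lines for metabolism, redox, and stress, and dashed lines are the medians of all tested genes.

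Of 13 further cell cycle targets, 6 rose and 3 fell in *Rbbp4* Ins/Ins ESCs, and 5 rose and 5 fell in *Rbbp4* Ins/Del ESCs, with medians of -0.02 and -0.13. The shares higher and lower were 46.2% and 23.1% in the former line and 38.5% and 38.5% in the latter, where all tested genes had 29.0% and 29.4%, and 30.6% and 31.9%. Higher in both were *Gtse1*, *Plk2*, *Plk3*, *Ptprv*, and *Psrc1*, and lower in both were *Btg2* and *Sfn*. *Sfn*, which encodes 14-3-3 sigma, a brake on entry into mitosis, had 1549 ± 91.5 normalized counts (SD, n = 3) in E14, 543 ± 14.7 in *Rbbp4* Ins/Ins ESCs, and 503.5 ± 10.9 in *Rbbp4* Ins/Del ESCs. It fell by 1.51 on the log2 scale in *Rbbp4* Ins/Ins ESCs (standard error 0.052, edgeR adjusted p = 2e-25) and by 1.62 in *Rbbp4* Ins/Del ESCs (standard error 0.053, edgeR adjusted p = 2.6e-26), against the direction of *Cdkn1a*. *Btg2*, an antiproliferative gene, fell by 0.53 and 0.72. *Gtse1*, whose product carries p53 out of the nucleus, rose by 0.46 and 0.57. The kinase gene *Plk3* rose by 0.38 and 0.58, and the phosphatase gene *Ptprv* rose by 0.75 and 1.06.

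Of 13 apoptosis targets besides *Bax* and *Bbc3*, 11 were tested, and *Fas* and *Casp1* had too few reads. In *Rbbp4* Ins/Ins ESCs 5 were higher and 4 lower, and in *Rbbp4* Ins/Del ESCs 2 were higher and 5 lower, with medians of 0.02 and 0.0082. Higher were 45.5% and 18.2%, against 29.0% and 30.6% of all tested genes, and lower were 36.4% and 45.5%, against 29.4% and 31.9%. *Bid* and *Ei24* were higher in both, and *Pmaip1*, *Tnfrsf10b*, *Perp*, and *Trp53i11* were lower in both. *Bcl2l13* overlaps 17.7% of the exonic length of *Bid* on the opposite strand. *Ei24*, an endoplasmic reticulum protein, had 2347 ± 94.6 normalized counts (SD, n = 3) in E14, 4443 ± 76.1 in *Rbbp4* Ins/Ins ESCs, and 4846 ± 98.9 in *Rbbp4* Ins/Del ESCs. It rose by 0.92 (standard error 0.033, edgeR adjusted p = 1.1e-24) and by 1.05 on the log2 scale (standard error 0.033, edgeR adjusted p = 1.2e-26). *Pmaip1*, which encodes the BH3-only protein NOXA, fell by 0.71 and 0.42, the same direction as *Bbc3*. *Perp* fell by 0.28 and 0.37, and *Trp53i11* by 0.43 and 0.20.

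The death receptor gene *Tnfrsf10b*, on chromosome 14, had 904 ± 56.5 normalized counts (SD, n = 3) in E14, 446 ± 20.4 in *Rbbp4* Ins/Ins ESCs, and 364.5 ± 40.6 in *Rbbp4* Ins/Del ESCs. It fell by 1.02 (standard error 0.064, edgeR adjusted p = 5.7e-17) and by 1.30 on the log2 scale (standard error 0.067, edgeR adjusted p = 6.4e-20). The 63 tested genes within 5 Mb of it had median log2 fold changes of -1.20 and -1.14, and 93.7% and 92.1% of them were lower. Its decrease was thus of the size of that of the surrounding region, and the part of the region in this decrease was not tested. The neighbours of the other named genes had medians between -0.28 and 0.19.

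Of 8 DNA repair targets, 0 rose and 1 fell in *Rbbp4* Ins/Ins ESCs, and 0 rose and 2 fell in *Rbbp4* Ins/Del ESCs by edgeR. Their medians were 0.10 and -0.03. The lower genes were 12.5% and 25% of the list, against 29.4% and 31.9% of all tested genes. DESeq2 also called 0 higher in each line, and at an unadjusted p of 0.05 both tools gave 1 higher gene in each. The share of all tested genes past that unadjusted p was not counted. *Ercc5*, a nuclease of nucleotide excision repair, was lower in both, by 0.15 (standard error 0.045, edgeR adjusted p = 0.00414) and by 0.36 on the log2 scale (standard error 0.046, edgeR adjusted p = 6.4e-09). The former call was lost without control replicate 1 or 3 or *Rbbp4* Ins/Ins replicate 1 or 2 (edgeR adjusted p up to 0.03, and from 0.0019).

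Metabolic, redox, and stress targets had the highest median of the lists, 0.29 in both mutants. Of 19 genes, 18 were tested and *Sco2* had too few reads. In *Rbbp4* Ins/Ins ESCs 10 were higher and 2 lower, and in *Rbbp4* Ins/Del ESCs 11 were higher and 3 lower. The shares higher were 55.6% and 61.1%, against 29.0% and 30.6% of all tested genes. The shares lower were 11.1% and 16.7%, against 29.4% and 31.9%. The 10 genes higher in both were *Sesn1*, *Tigar*, *Gls2*, *Gpx1*, *Trp53inp2*, *Gdf15*, *Ak1*, *Ephx1*, *Slc19a2*, and *Pvt1*, and *Ddit4* and *Rap2b* were lower in both. *B430305J03Rik* overlaps 54.5% of the exonic length of *Rap2b* on the opposite strand. *Ephx1*, an epoxide hydrolase, had 77.8 ± 1.56 normalized counts (SD, n = 3) in E14, 314 ± 13.2 in *Rbbp4* Ins/Ins ESCs, and 310 ± 10.6 in *Rbbp4* Ins/Del ESCs. It rose 4.04-fold (log2 fold change 2.01, standard error 0.10, edgeR adjusted p = 3.7e-20) and 3.98-fold (1.99, standard error 0.10, edgeR adjusted p = 4.8e-20). *Gdf15*, a secreted stress factor, rose from 14.0 ± 4.06 normalized counts (SD, n = 3) to 60.2 ± 15.0 in *Rbbp4* Ins/Ins ESCs and 59.2 ± 5.51 in *Rbbp4* Ins/Del ESCs, with log2 fold changes of 2.11 and 2.07 (standard error 0.25 in both, edgeR adjusted p = 1.6e-09 and 2.6e-09). *Gls2*, mitochondrial glutaminase, rose 2.03-fold and 1.98-fold. The long noncoding RNA gene *Pvt1* rose 2.07-fold and 2.05-fold.

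*Sesn1*, which encodes another sestrin, is a p53 target like *Sesn2*. *Sesn1* had 199.2, 188.6, and 203.5 normalized counts in E14, 315.6, 290, and 302.3 in *Rbbp4* Ins/Ins ESCs, and 420.2, 405.1, and 394.6 in *Rbbp4* Ins/Del ESCs. The 3 groups were separate from one another. *Sesn1* rose by 0.62 (standard error 0.083, edgeR adjusted p = 2.5e-08) and by 1.05 on the log2 scale (standard error 0.079, edgeR adjusted p = 1.1e-14), whereas *Sesn2* did not pass in either line.

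The genes most like *Trp53*, *Mdm2*, and *Cdkn1a* were sought among 12712 genes by Pearson's r of log2 normalized counts over the 9 libraries. The libraries form 3 lines, so r mostly reflects the level of each line and is given as a description. Closest to *Trp53* were *Pck2* at 0.981 and *Plekhn1* at 0.981, and 33 genes were above 0.95. Closest to *Mdm2* were *Wdr5* at 0.998 and *Cnot10* at 0.998, and 1566 genes were above 0.95. Closest to *Cdkn1a* were *Napsa* at 0.9995 (46.9, 397, and 412 mean normalized counts in the 3 lines) and *Ephx1* at 0.9991, and 1556 genes were above 0.95.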

How the data were processed

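RNA was measured in 9 libraries, grouped by their genotype labels. The authors isolated total RNA, prepared mRNA libraries, and sequenced paired ends of 50 bp. Per the labels, STAR 2.7.3, HTSeq, and DESeq2 1.22.2 were used with mm10. The deposited values are raw counts per gene symbol, not normalized. The version, strand setting, and annotation of the counting are not given in the sources used here. Nothing states that the 3 libraries of a line came from separate cultures, so p-values measure the spread between libraries, which may be technical. No libraries of a line were alike within sampling noise (chi-square per gene from 1.89 to 4.77).

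The 10 genes and all gene lists were chosen with earlier results of these data known. edgeR 4.0.16 in R 4.3.3 (TMM factors from 0.993 to 1.02, filterByExpr, glmQLFit, glmQLFTest) fitted all 9 libraries with 3 groups, and p was adjusted over 14125 genes with a limit of 0.01, as in the study. The biological coefficient of variation was 0.0286. A standard error is the size of a log2 fold change over the root of its F statistic. In simulated data with 200 genes changed by known folds, edgeR recovered 159 in the comparison of Ins/Ins with control (5 false calls) and 164 in that of Ins/Del with control (1 false call) among 13887 genes. The simulated folds were larger than those of most of the 10 genes, and a far smaller share of genes changed than was called in the data. The simulation therefore checks neither calls of small folds nor the scaling when many genes change. Besides the 10 genes, *Rbbp4*, *Mdm4*, *Ppm1d*, and *Cdkn2a* are named whatever their values. Up to 5 further genes per list were picked by their values. These had passed the limit in the same direction in both mutants, with the largest absolute mean log2 fold change and a mean count above 20. All genes called in both are listed by name. Alternatives were DESeq2 1.42.0, other scalings, all genes with at least 1 read, only the groups compared, a replicate block, each library left out, and a limit of 0.05. Neighbours within 5 Mb were added after the data were seen. Positions and exon lengths are from GENCODE M21 (GRCm38). No genome sequence was used, so the planned search of whole gene regions for p53 sites was replaced by RefSeq promoters and GENCODE transcripts. Tables were made with Python 3.11.15 and pandas 2.3.3, figures with matplotlib 3.10.9. Replicates with the same number did not deviate together (r from -0.0238 to 0.0601), so they were not paired.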

Additional observations from a re-analysis of the deposited data

Results flagged for a closer look

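For 8 of 33 named genes of the p53 pathway, none of them among *Trp53* and its 9 targets described first, the change differed between the 2 mutant lines, by edgeR's test of *Rbbp4* Ins/Del ESCs against *Rbbp4* Ins/Ins ESCs over all genes, in which 10.8% of all tested genes passed. Most of the named genes outside the 10 were picked as the most changed of their lists, so the 2 shares are not comparable. *Sesn1* differed by 0.42 on the log2 scale (standard error 0.074, edgeR adjusted p = 4.9e-05) and *Ercc5* by -0.22 (standard error 0.047, edgeR adjusted p = 0.00078), and both passed under all 16 alternatives. The others did not pass under every alternative. *Pmaip1* differed by 0.29 (edgeR adjusted p = 0.00127, from 0.0004 to 0.015 over 16 alternatives), *Trp53bp1* by -0.16 (0.00212, from 0.0015 to 0.019), *Ei24* by 0.12 (0.00398, from 0.0014 to 0.04), *Trp53i11* by 0.23 (0.0047, from 0.003 to 0.029), *Gtse1* by 0.12 (0.00536, from 0.0015 to 0.068), and *Tnfrsf10b* by -0.28 (0.00575, from 0.0015 to 0.073). The calls of these 6 genes were lost in fits that left out a mutant library, and that of *Tnfrsf10b* also with DESeq2. Groups of 3 libraries are too small for a check of single libraries that stand apart.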

How the results depend on the processing

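No call of the 10 genes reversed under any of the 16 alternatives. Of 480 repeats of their 30 comparisons, 461 stayed on the same side of the limit, 12 lost the call, and 7 gained it. With the replicate block, 6 of the 10 genes rose and 2 fell in *Rbbp4* Ins/Ins ESCs, the call of *Trp53* being lost, and 5 rose and 3 fell in *Rbbp4* Ins/Del ESCs. No paired analysis is given beside the results, since the numbers did not pair the libraries. At a limit of 0.05, 1 of the 10 genes, *Trp53*, was lower in *Rbbp4* Ins/Del ESCs than in *Rbbp4* Ins/Ins ESCs, and over all genes 1426 were higher and 1256 lower, beside 872 and 655. With 1 library left out, these counts lay between 576 and 943 and between 406 and 703. For the cell cycle list, the 5 genes lower in *Rbbp4* Ins/Del ESCs were 3 to 5 with 1 library left out, with the lowest without control replicate 2. Of cell cycle targets, 1 (7.69%, against 6.17% of all tested genes) was higher in *Rbbp4* Ins/Del ESCs than in *Rbbp4* Ins/Ins ESCs. This count became 2 with DESeq2 size factors or only the groups compared, 3 at 0.05, and 0 to 2 with 1 library left out. For apoptosis targets, the 5 genes higher in *Rbbp4* Ins/Ins ESCs were 3 to 5 with 1 library left out, the fewest without *Rbbp4* Ins/Ins replicate 2, and the 2 higher in *Rbbp4* Ins/Del ESCs were 4 at 0.05. Between the mutants, 3 apoptosis targets were higher and 2 lower. These are 27.3% and 18.2% of those tested, against 6.17% and 4.64% of all tested genes. The counts were 0 to 3 and 1 to 2 with 1 library left out, with 1 lower by DESeq2. For DNA repair targets, the 0 genes higher in *Rbbp4* Ins/Ins ESCs became 1 with all genes of at least 1 read or at 0.05, and 0 to 1 with 1 library left out, and the 1 lower was 0 to 1. The 0 higher in *Rbbp4* Ins/Del ESCs became 1 at 0.05 and 0 to 1 with 1 library left out. Of metabolic targets, 2 (11.1%, against 4.64% of all tested genes) were lower in *Rbbp4* Ins/Del ESCs than in *Rbbp4* Ins/Ins ESCs. This count was 0 by DESeq2 and 1 to 3 with 1 library left out. The cause of these moves was not tested.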
